A study of Homo sapiens with 15 samples.

Results

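The 10 Notch genes described here are the receptors NOTCH1, NOTCH2 and NOTCH3, the ligands JAG1, JAG2 and DLL1, and the transcriptional repressors HES1, HES2, HES4 and HEY1. They were chosen by gene symbol, with earlier results of these data known, and they are 10 of the 18179 genes in the data. Notch is a signaling system between touching cells. A ligand of the Jagged or Delta family on one cell binds a Notch receptor on its neighbor, the receptor is cut by ADAM proteases and then by γ-secretase, and its freed intracellular domain enters the nucleus. There it joins the DNA-binding protein RBPJ and a Mastermind coactivator and turns on genes such as HES1 and HEY1, whose products repress transcription. In skin, NOTCH1 is known as a promoter of the exit of basal keratinocytes from division and of their differentiation, and JAG1 and JAG2 are the ligands that keratinocytes themselves make.

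HaCaT cells, an immortal line of human skin keratinocytes, were given silver sulfide nanoparticles (Ag2S NPs) or Li-doped Ag2S NPs for 24 h, and their RNA was sequenced. The question asked of the data was how each particle changed gene expression. The 5 groups were Ag2S NPs at 160 μg/mL (replicates 4 to 6), Ag2S NPs at 320 μg/mL (replicates 7 to 9), Li-doped Ag2S NPs at 160 μg/mL (replicates 10 to 12), Li-doped Ag2S NPs at 320 μg/mL (replicates 13 to 15) and untreated cells (replicates 1 to 3), with 3 libraries each. All groups are 1 cell line with no introduced gene, every comparison with untreated cells uses the same 3 untreated libraries, and the labels do not say whether separate cultures were used. The p-values therefore measure the spread between these libraries, which may be technical.

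The sequences shown first are the promoters of HES1 and HES4, because they are the members whose windows hold the letters of the DNA motif of RBPJ, the protein through which the cut receptor acts. The windows run from 250 bases before to 50 bases after the start site, come from RefSeq on GRCh38.p14 and read 5′ to 3′. Of the 10 members, 8 had such a window. DLL1 and HEY1 are named only. The capitals mark GTGGGAA, searched on both strands, and the further copy TGGGAA in HES1, which was added after the sequence was seen. The window of HES1 is chr3:194135898-194136197 on the plus strand, and that of HES4 is chr1:1000048-1000347 on the minus strand.
HES1: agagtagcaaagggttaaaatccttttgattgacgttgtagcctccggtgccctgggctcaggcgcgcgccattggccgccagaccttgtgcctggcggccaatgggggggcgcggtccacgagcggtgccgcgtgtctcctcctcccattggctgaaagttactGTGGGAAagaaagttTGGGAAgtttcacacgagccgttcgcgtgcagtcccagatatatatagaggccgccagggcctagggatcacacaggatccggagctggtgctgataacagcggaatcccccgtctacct
HES4: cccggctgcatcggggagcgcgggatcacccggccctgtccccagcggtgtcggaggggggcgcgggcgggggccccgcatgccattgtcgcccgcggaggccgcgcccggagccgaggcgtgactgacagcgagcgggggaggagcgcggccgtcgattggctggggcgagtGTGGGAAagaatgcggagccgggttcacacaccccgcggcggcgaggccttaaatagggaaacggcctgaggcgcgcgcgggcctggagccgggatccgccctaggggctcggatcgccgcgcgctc

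GTGGGAA started 85 bases before the start site in HES1 and 77 bases before it in HES4, and it was found in 2 of the 8 member windows and in 6.25% of 35116 promoters. The shorter TGGGAA, which overlaps it, was found in 24.0% of promoters, and its further copy in HES1 started 70 bases before the start site. CACNAG, the letters of the N-box that HES proteins bind, was found in 5 of the 8 windows, those of NOTCH1, NOTCH2, NOTCH3, HES1 and HES2, and in 38.0% of all promoters. CACGTG, the letters of an E-box, was found in 0 of the 8 and in 7.26% of all promoters. A match of letters is a description and not a measured site.

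The members lie on 8 chromosomes (coordinates of GENCODE release 29 on GRCh38). The receptors are NOTCH1 (ENSG00000148400, chr9:136494433-136545786), NOTCH2 (ENSG00000134250, chr1:119911553-120069626) and NOTCH3 (ENSG00000074181, chr19:15159038-15200981). The ligands are JAG1 (ENSG00000101384, chr20:10637684-10673999), JAG2 (ENSG00000184916, chr14:105140981-105168824) and DLL1 (ENSG00000198719, chr6:170282206-170306565). The repressors are HES1 (ENSG00000114315, chr3:194136145-194138732), HES2 (ENSG00000069812, chr1:6412418-6424670), HES4 (ENSG00000188290, chr1:998962-1000172) and HEY1 (ENSG00000164683, chromosome 8). HES1 is on the plus strand and the others are on the minus strand. NOTCH1, JAG1 and DLL1 overlap genes of the opposite strand (AL592301.1, AL050403.2 and FAM120B), and since the sources do not say that strand was used, reads of such a pair cannot be told apart. JAG2 and DLL1 also overlap genes of their own strand (AL512356.1 and AL078605.1), which strand would not separate. NOTCH1, NOTCH3, JAG1 and JAG2 overlap microRNA genes of their own strand (MIR4673, MIR6795, MIR6870 and MIR6765). NOTCH2 has near-identical partial copies, the NOTCH2NL genes, so its values are uncertain to that extent.

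Expression is given as the deposited FPKM, in which the fragments of a gene are divided by its length and by the size of the library. The number of reads is not given and could not be worked out from low values, so the depth is unknown and precision comes from the spread of 3 libraries. Summed FPKM lay between 582451 and 698579 per library. Replicate 15 of Li-doped Ag2S NPs at 320 μg/mL stood apart, with a sum of 698579 FPKM against 631117 and 626624 FPKM in its group, and replicate 6 of Ag2S NPs at 160 μg/mL did so to a lesser degree, with 648712 FPKM against 589969 and 607082 FPKM. Results of the 10 members that turn on either library are given with and without it. The other genes of the pathway, described below, were not examined with a library left out. All 14 keratinocyte markers averaged at least 1 FPKM in each group. Their summed level lay between 17191.8 and 18809.9 FPKM (Ag2S NPs at 160 μg/mL), between 17590.7 and 19336.2 FPKM (Ag2S NPs at 320 μg/mL), between 12714.6 and 15071.8 FPKM (Li-doped Ag2S NPs at 160 μg/mL) and between 27432.9 and 32422.4 FPKM (Li-doped Ag2S NPs at 320 μg/mL), against 13726.4 to 14032.4 FPKM in untreated cells. Of markers of other cells, 6 fibroblast genes summed to between 2.09 and 7.9 FPKM in treated libraries against 13.1 to 16.2 FPKM in untreated libraries, and the 4 endothelial genes in the data to between 0.07 and 0.81 FPKM against 3.36 to 4.01 FPKM. The 4 melanocyte genes summed to between 1.93 and 3.05, 2.09 and 3.11, 3.07 and 3.34, and 2.27 and 3.02 FPKM in the treated groups in the order above, against 1.74 to 1.96 FPKM in untreated cells. The 4 immune genes, of which CD68 was the highest, summed to between 13.9 and 15.8, 18 and 21.8, 25.8 and 29.4, and 9.55 and 12 FPKM in these groups, against 11.1 to 12.1 FPKM in untreated cells, while PTPRC was not among the genes of the tables. The part of these shifts in the results was not tested.

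All 10 members were expressed in every library and passed the filter of a mean of 1 FPKM. They were tested with limma on log2(FPKM + 0.1), a scale that understates the change of low genes, and called at an adjusted p under 0.05 over all genes of the fit. With Ag2S NPs at 160 μg/mL, 1 member rose and 4 fell, where 35.2% of all 11987 genes were called. At 320 μg/mL, 3 rose and 4 fell, where 52.4% of all 11903 genes were called. With Li-doped Ag2S NPs, 2 rose and 4 fell at 160 μg/mL (63.3% of all genes) and 2 rose and 4 fell at 320 μg/mL (61.6% of all genes). Since so many genes were called, 5, 7, 6 and 6 members of 10 is not far from the whole, and what follows describes which members moved and which way. The ranges of treated and untreated libraries did not overlap for 7, 7, 9 and 6 members, where 52.2%, 65.5%, 71.1% and 67.1% of all genes did not overlap. The median log2 change of the members was -0.24, -0.08, 0.03 and -0.14, beside -0.137, -0.185, -0.194 and -0.256 over all genes. Scaling each library by its median ratio moved that median over all genes to between -0.013 and -0.007, and the split of all genes into higher and lower changed with it from 11.5% and 23.8% to 16% and 14.1% (Ag2S NPs, 160 μg/mL), from 16.2% and 36.2% to 23.7% and 22% (Ag2S NPs, 320 μg/mL), from 22.6% and 40.6% to 30.6% and 30.1% (Li-doped, 160 μg/mL) and from 17% and 44.6% to 27.9% and 26.4% (Li-doped, 320 μg/mL). After that scaling the members called were 2 higher and 1 lower, 4 and 2, 4 and 4, and 4 and 3, in the same order of groups.

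**Figure D1:**
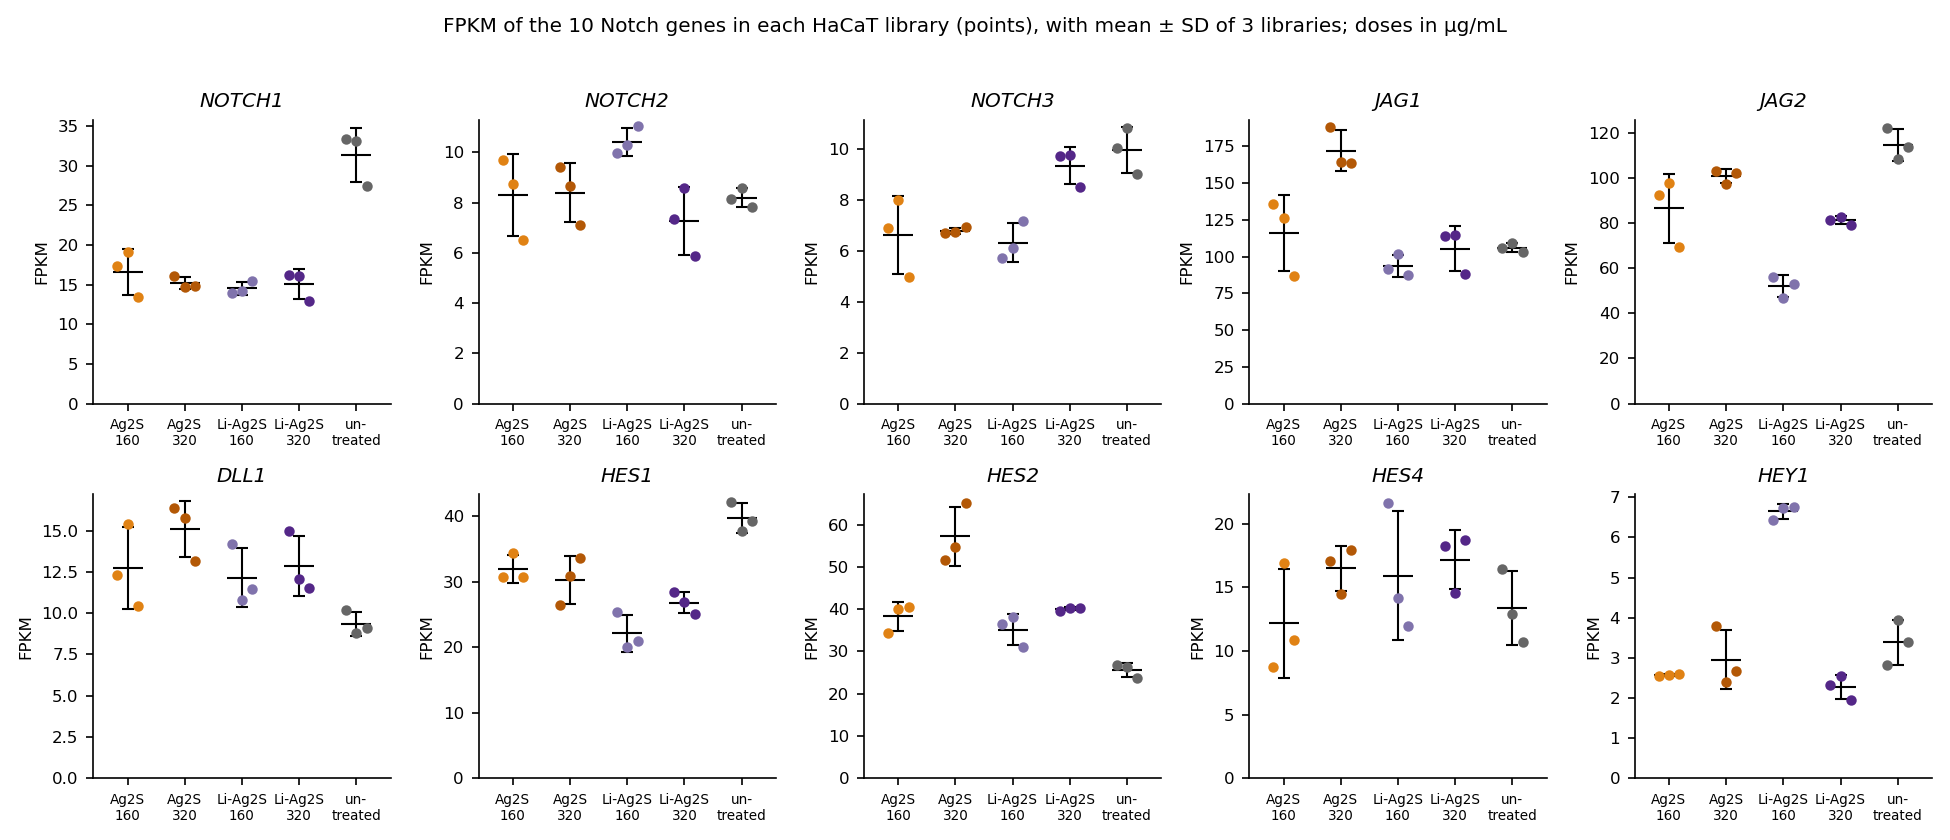
FPKM (vertical axes, from 0) of each of the 10 Notch genes in the 15 libraries (points), by group on the horizontal axes (doses in μg/mL), with the mean and SD of 3 libraries in black. NOTCH1 and HES1 are lower and HES2 is higher in every treated library than in every untreated one, and HEY1 is high in Li-doped Ag2S NPs at 160 μg/mL, at 6.44 to 6.77 FPKM.

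NOTCH1, the main Notch receptor of keratinocytes and the most abundant of the receptors here, fell to about the same level with both particles and both doses. It had 17.31, 19.16 and 13.4 FPKM with Ag2S NPs at 160 μg/mL and 16.14, 14.74 and 14.79 FPKM at 320 μg/mL. It had 13.96, 14.19 and 15.43 FPKM with Li-doped Ag2S NPs at 160 μg/mL and 16.18, 16.1 and 12.93 FPKM at 320 μg/mL, against 33.45, 33.16 and 27.42 FPKM in untreated cells. The highest of the 12 treated libraries was thus below the lowest untreated one, and the 4 treated groups overlapped one another. The log2 change was -0.92 ± 0.13 (SE, limma adjusted p = 0.000593) and -1.03 ± 0.11 (adjusted p = 2.04e-05) with Ag2S NPs, and -1.10 ± 0.13 (adjusted p = 3.16e-05) and -1.05 ± 0.11 (adjusted p = 1.55e-05) with Li-doped Ag2S NPs, at 160 and 320 μg/mL. These values come from whole cultures, in which fewer cells that express a gene and less RNA per cell cannot be told apart.

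NOTCH3, a receptor better known from vascular smooth muscle and also made by keratinocytes, fell in 3 of the 4 treated groups. It had 6.89, 7.99 and 4.99 FPKM with Ag2S NPs at 160 μg/mL and 6.72, 6.73 and 6.93 FPKM at 320 μg/mL. With Li-doped Ag2S NPs it had 5.71, 6.11 and 7.17 FPKM at 160 μg/mL and 9.74, 9.79 and 8.51 FPKM at 320 μg/mL, against 10.04, 10.83 and 9.03 FPKM in untreated cells. The first 3 groups lay below all untreated libraries, and the higher dose of Li-doped Ag2S NPs overlapped them. The log2 change was -0.60 ± 0.17 (limma adjusted p = 0.0201) and -0.54 ± 0.11 (adjusted p = 0.00181) with Ag2S NPs at 160 and 320 μg/mL, -0.65 ± 0.17 (adjusted p = 0.00666) with Li-doped Ag2S NPs at 160 μg/mL and -0.09 (95% interval -0.33 to 0.15, adjusted p = 0.493) at 320 μg/mL. The call for Ag2S NPs at 160 μg/mL was lost without replicate 6 (-0.42, adjusted p = 0.0505), without untreated replicate 1 (-0.60, adjusted p = 0.0583) or 2 (-0.54, adjusted p = 0.0749), and after scaling (-0.48, adjusted p = 0.0506).

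NOTCH2 was not called in any comparison with untreated cells. Its mean ± SD was 8.31 ± 1.64 and 8.4 ± 1.17 FPKM with Ag2S NPs and 10.4 ± 0.559 and 7.26 ± 1.35 FPKM with Li-doped Ag2S NPs, at 160 and 320 μg/mL, against 8.19 ± 0.372 FPKM in untreated cells (n = 3 each). Its 3 libraries of Li-doped Ag2S NPs at 160 μg/mL, at 9.95, 10.28 and 11.04 FPKM, were all above the untreated ones, at 8.14, 8.58 and 7.84 FPKM. That difference of 0.34 missed the threshold as deposited (limma adjusted p = 0.0536). It passed after scaling (0.53, adjusted p = 0.00516) and without Ag2S replicate 4 (adjusted p = 0.0343) or 6 (adjusted p = 0.00935), which enter the fit only through its spread. The 4 groups other than that one overlapped in the order of their levels.

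Within a library, NOTCH1 therefore made up less of the receptor mRNA in treated cells, and this ratio does not depend on how libraries are scaled. Its share of the summed FPKM of the 3 receptors was 52.8 ± 1.5% and 50.1 ± 1.17% with Ag2S NPs and 46.5 ± 0.634% and 47.6 ± 0.975% with Li-doped Ag2S NPs, at 160 and 320 μg/mL, against 63.3 ± 1.45% in untreated cells (SD, n = 3 each). The treated libraries ranged below 53.8% and the untreated ones above 61.9%, with no overlap. The summed level of the 3 receptors was 31.6 ± 5.85, 30.4 ± 1.74, 31.3 ± 2.1 and 31.7 ± 3.83 FPKM in these 4 groups, against 49.5 ± 4.53 FPKM in untreated cells.

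The ligands moved in different directions. JAG2, a ligand of basal keratinocytes, was below every untreated library in all 12 treated libraries. It had 92.53, 97.64 and 69.21 FPKM with Ag2S NPs at 160 μg/mL and 103.15, 97.33 and 102.08 FPKM at 320 μg/mL. It had 56.24, 46.61 and 53.2 FPKM with Li-doped Ag2S NPs at 160 μg/mL and 81.32, 82.79 and 79.33 FPKM at 320 μg/mL, against 122.03, 108.17 and 113.45 FPKM in untreated cells. Li-doped Ag2S NPs at 160 μg/mL gave the lowest level, clear of every other group. The log2 change was -1.14 ± 0.12 (limma adjusted p = 1.36e-05) and -0.50 ± 0.06 (adjusted p = 4.9e-05) with Li-doped Ag2S NPs at 160 and 320 μg/mL, where the value at 320 μg/mL was -0.24 (adjusted p = 0.0089) after scaling. It was -0.42 ± 0.12 (adjusted p = 0.0232) and -0.18 ± 0.06 (adjusted p = 0.0276) with Ag2S NPs at 160 and 320 μg/mL. Scaling ended the calls of Ag2S NPs (-0.29, adjusted p = 0.0843 at 160 μg/mL and -0.01, adjusted p = 0.925 at 320 μg/mL). Without replicate 6 the change at 160 μg/mL was -0.27 (adjusted p = 0.0472), and the call was lost without untreated replicate 1 (-0.37, adjusted p = 0.0813) or 3 (-0.43, adjusted p = 0.0597). At 320 μg/mL it was lost in a fit over 15 libraries (adjusted p = 0.165) and without any 1 of replicates 8 and 9 or untreated replicates 1 and 3 (adjusted p from 0.0547 to 0.122).

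JAG1, the Jagged ligand of suprabasal and hair follicle cells, rose with the higher dose of Ag2S NPs. It had 135.47, 126.22 and 86.81 FPKM with Ag2S NPs at 160 μg/mL and 188, 164.55 and 163.59 FPKM at 320 μg/mL. With Li-doped Ag2S NPs it had 91.71, 101.53 and 87.2 FPKM at 160 μg/mL and 114.24, 114.3 and 87.82 FPKM at 320 μg/mL, against 105.71, 109.09 and 103.29 FPKM in untreated cells. The 3 libraries of Ag2S NPs at 320 μg/mL were above all 12 others, with a log2 change of 0.70 ± 0.10 against untreated cells (limma adjusted p = 0.000154). At 160 μg/mL the change was 0.11 (adjusted p = 0.576), in which replicate 6 was below the untreated libraries and replicates 4 and 5 above them. Without replicate 6 it was 0.30 (adjusted p = 0.0146) and without replicate 4 it was -0.02 (adjusted p = 0.929). With Li-doped Ag2S NPs it was -0.18 (adjusted p = 0.267) at 160 μg/mL, where leaving out Ag2S replicate 6 from the shared fit gave an adjusted p of 0.0321. At 320 μg/mL it was -0.02 (95% interval -0.24 to 0.20, adjusted p = 0.882) as deposited and 0.23 (adjusted p = 0.0297) after scaling, and replicate 15 held the lowest value, without which it was 0.11 (adjusted p = 0.174).

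DLL1, a Delta-type ligand known in human epidermis from stem cell clusters, was higher in all 12 treated libraries than in any untreated one. It had 12.32, 15.41 and 10.45 FPKM with Ag2S NPs at 160 μg/mL and 16.37, 15.73 and 13.17 FPKM at 320 μg/mL. It had 14.16, 10.79 and 11.47 FPKM with Li-doped Ag2S NPs at 160 μg/mL and 14.96, 12.07 and 11.54 FPKM at 320 μg/mL, against 10.18, 8.77 and 9.08 FPKM in untreated cells. The 4 treated groups overlapped one another. Against untreated cells the log2 change was 0.68 ± 0.13 (limma adjusted p = 0.000985) with Ag2S NPs and 0.45 ± 0.13 (adjusted p = 0.00962, and 0.70 after scaling) with Li-doped Ag2S NPs at 320 μg/mL. At 160 μg/mL it narrowly missed the threshold with Ag2S NPs (0.43 ± 0.15, adjusted p = 0.0504) and with Li-doped Ag2S NPs (0.37 ± 0.15, adjusted p = 0.055), and it passed after scaling (0.55, adjusted p = 0.0158, and 0.55, adjusted p = 0.00657). Leaving out 1 library also brought it past, namely replicate 6 or 10 for Ag2S NPs (adjusted p from 0.0193 to 0.0447) and replicate 5, 6 or 11 for Li-doped Ag2S NPs (adjusted p from 0.0306 to 0.0442).

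The balance between the Jagged ligands was turned toward JAG1 in every treated library. The ratio of JAG1 to JAG2 FPKM was 1.34 ± 0.112 and 1.71 ± 0.111 with Ag2S NPs and 1.82 ± 0.314 and 1.3 ± 0.165 with Li-doped Ag2S NPs, at 160 and 320 μg/mL, against 0.928 ± 0.0728 in untreated cells (SD, n = 3 each). With Ag2S NPs at 320 μg/mL the ratio went with a higher JAG1, and with Li-doped Ag2S NPs at 160 μg/mL it went with a lower JAG2. FPKM of JAG1, JAG2 and DLL1 summed to 215.4 ± 42.3 and 288.0 ± 16.9 with Ag2S NPs and 157.6 ± 5.24 and 199.5 ± 18 with Li-doped Ag2S NPs, against 229.9 ± 6.93 in untreated cells. The sum was above the untreated libraries with Ag2S NPs at 320 μg/mL and below them with both doses of Li-doped Ag2S NPs, and it overlapped them with Ag2S NPs at 160 μg/mL. These are sums of FPKM as deposited. With Li-doped Ag2S NPs at 320 μg/mL the log2 changes after scaling were 0.23 (JAG1), -0.24 (JAG2) and 0.70 (DLL1). Whether the sum was lower in that group therefore depends on the scaling.

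**Figure D2:**
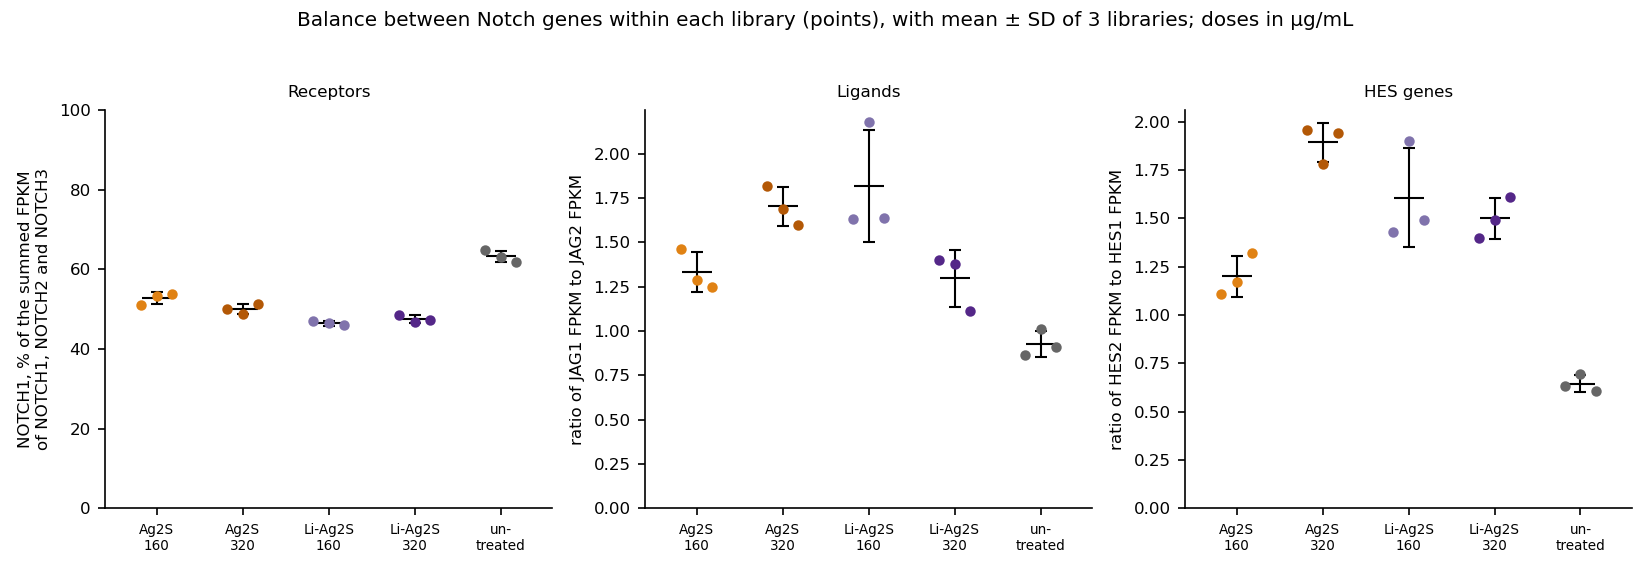
Ratios within each library (points), by group on the horizontal axes (doses in μg/mL), with the mean and SD of 3 libraries in black. The panels show NOTCH1 as a percent of the summed FPKM of the 3 receptors, the ratio of JAG1 to JAG2 FPKM and the ratio of HES2 to HES1 FPKM, all axes starting at 0. In each panel the 12 treated libraries are clear of the 3 untreated ones, which lie between 61.9% and 64.8%, between 0.866 and 1.01 and between 0.608 and 0.694.

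Of the repressors, HES1 fell and HES2 rose. HES1, the classical target of Notch with the RBPJ letters printed above, was below every untreated library in all 12 treated libraries. It had 30.75, 34.36 and 30.7 FPKM with Ag2S NPs at 160 μg/mL and 26.39, 30.82 and 33.63 FPKM at 320 μg/mL. It had 25.38, 20.02 and 20.93 FPKM with Li-doped Ag2S NPs at 160 μg/mL and 28.36, 26.94 and 25.07 FPKM at 320 μg/mL, against 42.17, 37.76 and 39.2 FPKM in untreated cells. Its log2 change was -0.85 ± 0.10 (limma adjusted p = 2.55e-05) and -0.57 ± 0.10 (adjusted p = 0.000417, and -0.31, adjusted p = 0.0177 after scaling) with Li-doped Ag2S NPs at 160 and 320 μg/mL. It was -0.31 ± 0.10 (adjusted p = 0.0317) and -0.40 ± 0.10 (adjusted p = 0.00498) with Ag2S NPs, and both calls were lost after scaling (-0.19, adjusted p = 0.173 at 160 μg/mL and -0.22, adjusted p = 0.0824 at 320 μg/mL). At 160 μg/mL the call of Ag2S NPs was also lost without any 1 of replicates 4 and 6 and untreated replicates 1, 2 and 3 (adjusted p from 0.055 to 0.11).

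HES2, a repressor of the same family whose own targets are less known, was above every untreated library in all 12 treated libraries. It had 34.26, 40.1 and 40.42 FPKM with Ag2S NPs at 160 μg/mL and 51.69, 54.8 and 65.08 FPKM at 320 μg/mL. It had 36.38, 38.05 and 31.11 FPKM with Li-doped Ag2S NPs at 160 μg/mL and 39.65, 40.23 and 40.35 FPKM at 320 μg/mL, against 26.76, 26.22 and 23.82 FPKM in untreated cells. Ag2S NPs at 320 μg/mL gave the highest level, clear of all other groups. It rose by a log2 change of 0.58 ± 0.10 (limma adjusted p = 0.00172) and 1.15 ± 0.09 (adjusted p = 1.38e-06) with Ag2S NPs and 0.45 ± 0.10 (adjusted p = 0.00219) and 0.65 ± 0.09 (adjusted p = 9.99e-05) with Li-doped Ag2S NPs, at 160 and 320 μg/mL. No alternative setting and no left-out library ended one of these 4 calls. Within a library, the ratio of HES2 to HES1 FPKM was 1.2 ± 0.105 and 1.89 ± 0.0982 with Ag2S NPs and 1.61 ± 0.256 and 1.5 ± 0.106 with Li-doped Ag2S NPs, against 0.646 ± 0.0444 in untreated cells, so that HES2 was above HES1 in all 12 treated libraries and below it in the 3 untreated ones.

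HEY1, a repressor related to the HES proteins, had the lowest mean of the members in every group except Li-doped Ag2S NPs at 160 μg/mL, where it stood out. It had 2.55, 2.58 and 2.61 FPKM with Ag2S NPs at 160 μg/mL and 3.79, 2.4 and 2.68 FPKM at 320 μg/mL. It had 6.44, 6.74 and 6.77 FPKM with Li-doped Ag2S NPs at 160 μg/mL and 2.32, 2.54 and 1.96 FPKM at 320 μg/mL, against 2.83, 3.94 and 3.4 FPKM in untreated cells. The libraries of Li-doped Ag2S NPs at 160 μg/mL were above all 12 others, with a log2 change of 0.96 ± 0.15 against untreated cells (limma adjusted p = 0.000225). The higher dose of the same particle was below the untreated libraries, with a log2 change of -0.55 ± 0.21 (adjusted p = 0.041) that was lost after scaling (-0.31, adjusted p = 0.201), without the filter on low values (adjusted p = 0.0695) and without any 1 of replicates 9, 13 and 15 and untreated replicates 2 and 3 (adjusted p from 0.0515 to 0.146). With Ag2S NPs it was -0.37 (adjusted p = 0.0792) at 160 μg/mL, past the threshold without untreated replicate 1 (-0.49, adjusted p = 0.0466), and -0.21 (adjusted p = 0.438) at 320 μg/mL.

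HES4, the other member with the RBPJ letters, was not called as deposited. Relative to its mean it varied most of the members in untreated cells and at 160 μg/mL, but not at 320 μg/mL. It had 8.74, 16.94 and 10.86 FPKM with Ag2S NPs at 160 μg/mL and 17.06, 14.52 and 17.95 FPKM at 320 μg/mL. It had 21.64, 14.18 and 11.97 FPKM with Li-doped Ag2S NPs at 160 μg/mL and 18.27, 14.58 and 18.75 FPKM at 320 μg/mL, against 16.46, 12.92 and 10.74 FPKM in untreated cells. All 4 treated groups overlapped the untreated one. At 320 μg/mL the log2 change was 0.32 (limma adjusted p = 0.108) with Ag2S NPs and 0.37 (adjusted p = 0.0563) with Li-doped Ag2S NPs. These values passed after scaling (0.49, adjusted p = 0.035, and 0.62, adjusted p = 0.00974), without untreated replicate 1 (0.48, adjusted p = 0.0237, and 0.53, adjusted p = 0.0118) and, for Li-doped Ag2S NPs, without replicate 14 (0.49, adjusted p = 0.0231).

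**Figure D3:**
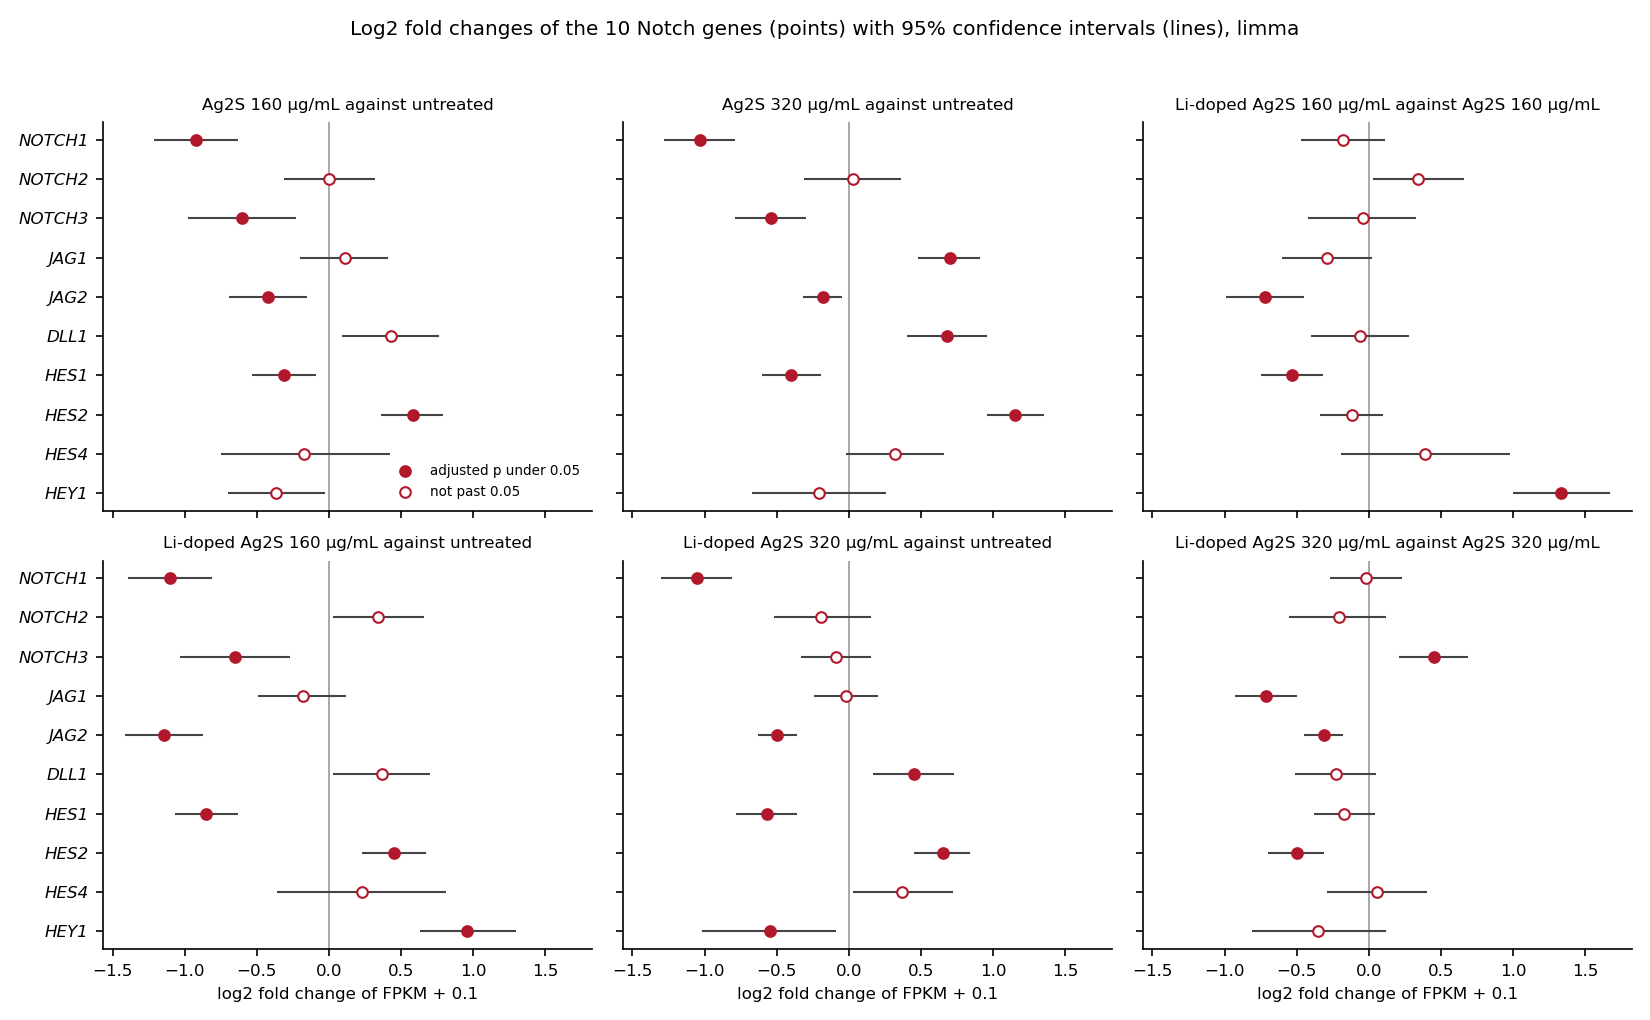
Log2 fold change of FPKM + 0.1 (horizontal axes) with its 95% confidence interval (lines) for the 10 members (rows) in 6 comparisons (panels), from limma. Filled points have an adjusted p under 0.05 and open points do not. NOTCH1 lies between -1.10 and -0.92 in the 4 panels against untreated cells. In the 2 panels that compare the particles it is at -0.18 (160 μg/mL) and -0.02 (320 μg/mL), with intervals that include 0, and JAG2 is lower with Li-doped Ag2S NPs at both doses.

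The gene values of HES2 hide a difference between its transcripts, which was looked at after the gene values had been seen. The gene lies on chromosome 1, minus strand. Its transcript ENST00000377834 has 4 exons, 4262 bases and a reading frame of 173 amino acids, and ends in an exon at chr1:6415232-6419153. Transcript ENST00000377836 has 3 exons, 507 bases and a reading frame of 76 amino acids, and ends in another exon at chr1:6413000-6413282. Below, the first is called the long or 4-exon transcript and the second the short or 3-exon transcript. A lower one, ENST00000377837, also has a frame of 76 amino acids and ends at chr1:6412418-6413282. It averaged 2.1 and 3.31 FPKM with Ag2S NPs and 2.81 and 1.66 FPKM with Li-doped Ag2S NPs, at 160 and 320 μg/mL, against 2.18 FPKM in untreated cells. Another low one, ENST00000489730, has a frame of 82 amino acids. Its mean ± SD was 2.99 ± 1.71 and 5.86 ± 3.82 FPKM with Ag2S NPs at these doses. With Li-doped Ag2S NPs it was 1.83 ± 0.952 and 2.94 ± 0.366 FPKM, against 1.66 ± 0.662 FPKM in untreated cells. Limma was run on the FPKM of all transcripts as on genes, where 5.66% and 17.5% of transcripts were called with Ag2S NPs and 27.5% and 22.8% with Li-doped Ag2S NPs, at 160 and 320 μg/mL. The split of short reads between transcripts of 1 gene is an estimate by Cufflinks, and the reads behind it were not analysed here.

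The short transcript was higher in all treated libraries. It had 10.55, 11.24 and 17.33 FPKM with Ag2S NPs at 160 μg/mL and 17.7, 19.7 and 24.18 FPKM at 320 μg/mL. It had 19.26, 23.68 and 16.18 FPKM with Li-doped Ag2S NPs at 160 μg/mL and 18.7, 18.32 and 19.75 FPKM at 320 μg/mL, against 5.87, 7.52 and 3.31 FPKM in untreated cells. The log2 change was 1.93 ± 0.26 (limma adjusted p = 0.00168) with Ag2S NPs at 320 μg/mL, 1.86 ± 0.31 (adjusted p = 0.00286) and 1.82 ± 0.26 (adjusted p = 0.00192) with Li-doped Ag2S NPs at 160 and 320 μg/mL, and 1.25 ± 0.31 (adjusted p = 0.0576) with Ag2S NPs at 160 μg/mL, which missed the threshold here and passed after scaling (1.40, adjusted p = 0.0442) and in the fit over 15 libraries (adjusted p = 0.0124).

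The long transcript rose in 1 group and fell in another. It had 19.87, 20.78 and 18.35 FPKM with Ag2S NPs at 160 μg/mL and 27.01, 25.89 and 26.4 FPKM at 320 μg/mL. It had 10.4, 10.84 and 9.74 FPKM with Li-doped Ag2S NPs at 160 μg/mL and 15.72, 17.65 and 14.96 FPKM at 320 μg/mL, against 16.82, 14.78 and 16.64 FPKM in untreated cells. It rose with Ag2S NPs at 320 μg/mL (0.72 ± 0.09, limma adjusted p = 0.00112) and fell with Li-doped Ag2S NPs at 160 μg/mL (-0.63 ± 0.09, adjusted p = 0.00155). It was 0.29 (adjusted p = 0.121, and 0.43, adjusted p = 0.0283 after scaling) with Ag2S NPs at 160 μg/mL and 0.00 (95% interval -0.21 to 0.21, adjusted p = 0.992) with Li-doped Ag2S NPs at 320 μg/mL. At matched doses it was lower with Li-doped than with undoped Ag2S NPs, by a log2 difference of -0.92 ± 0.09 (adjusted p = 0.000364, 17.5% of transcripts called) at 160 μg/mL and -0.71 ± 0.09 (adjusted p = 0.00576, 3.91% of transcripts called) at 320 μg/mL. The short transcript made up 33.9 ± 7.89% and 35.8 ± 1.46% of the summed FPKM of the 6 HES2 transcripts with Ag2S NPs and 55.7 ± 5.65% and 47.2 ± 1.7% with Li-doped Ag2S NPs, against 21.5 ± 7.4% in untreated cells (SD, n = 3 each).

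**Figure D4:**
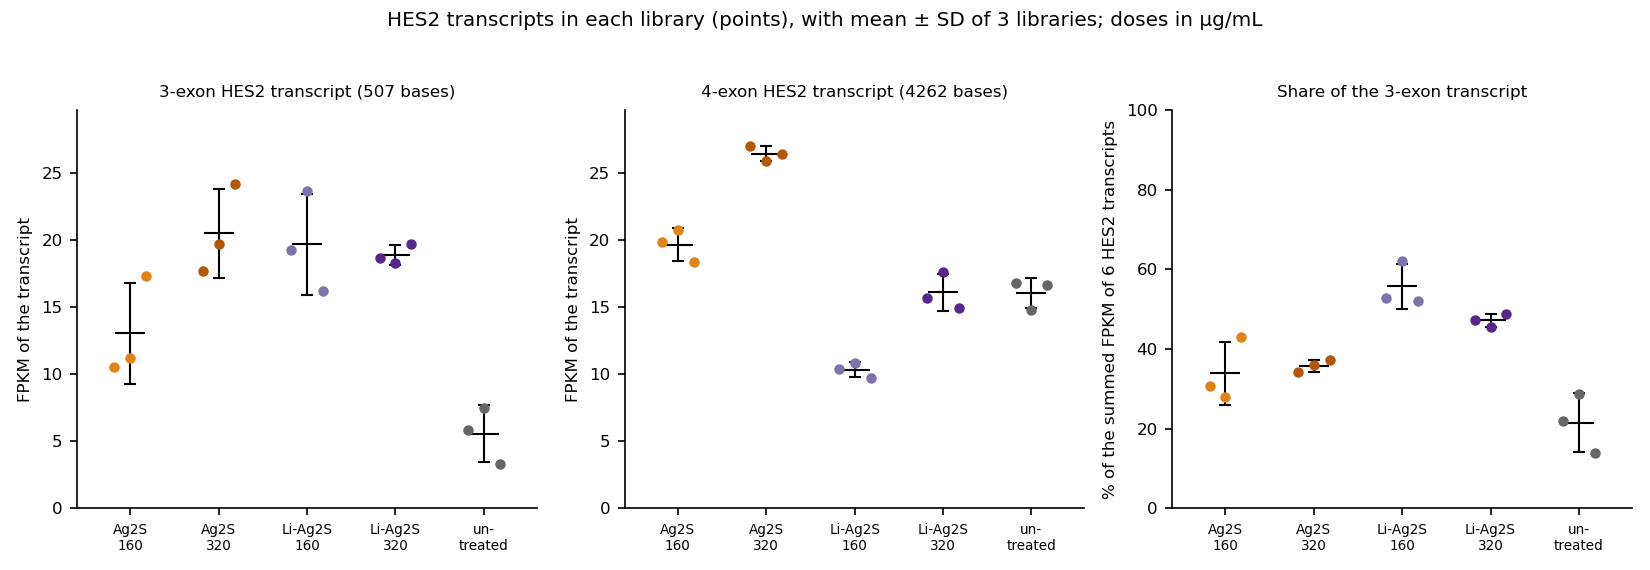
FPKM of the 3-exon (ENST00000377836) and of the 4-exon (ENST00000377834) HES2 transcript, and the 3-exon transcript as a percent of the summed FPKM of 6 HES2 transcripts (vertical axes, from 0), in each library (points) by group (doses in μg/mL), with the mean and SD of 3 libraries in black. The 3-exon transcript is at 10.55 FPKM or more in all treated libraries and at 7.52 FPKM or less in untreated ones, and the 4-exon transcript is lowest with Li-doped Ag2S NPs at 160 μg/mL.

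For the other members the transcripts added little. A single transcript held 94.2%, 95.4% and 90.3% of the summed transcript FPKM of NOTCH1, NOTCH2 and NOTCH3, 95.9% of that of HES1, 84.6% of that of DLL1, 79.4% of that of HEY1 and 78.7% of that of JAG1. JAG2 and HES4 were spread over several, the most abundant holding 30.2% and 40.8%, and their transcript means did not all move alike. With Ag2S NPs at 320 μg/mL, ENST00000546616 of JAG2 averaged 35.0 ± 2.75 FPKM, against 31.4 ± 2.33 FPKM in untreated cells (SD). The other JAG2 transcripts had lower means than in untreated cells. With Ag2S NPs at 160 μg/mL, ENST00000304952 of HES4 averaged 6.33 ± 1.03 FPKM against 3.98 ± 1.75 FPKM. ENST00000481869 averaged 2.89 ± 1.81 FPKM against 5.71 ± 1.09 FPKM.

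The particles differ by their Li doping, and they were compared at matched doses over the 10 members, with p-values adjusted over all genes. At 160 μg/mL, where 50.4% of all genes were called (21.4% higher and 29% lower), 1 member was higher and 2 were lower with Li-doped than with undoped Ag2S NPs. HEY1 was higher by 1.33 ± 0.15 on the log2 scale (limma adjusted p = 3.52e-05), JAG2 was lower by a log2 difference of -0.72 (adjusted p = 0.000635) and HES1 by -0.53 (adjusted p = 0.0011). The libraries of the particles did not overlap in these 3 or in NOTCH2, where 55% of all genes did not overlap. The other members were not called. Their differences were -0.18 for NOTCH1 (95% interval -0.47 to 0.11), 0.34 for NOTCH2 (0.03 to 0.66), -0.04 for NOTCH3 (-0.42 to 0.33), -0.29 for JAG1 (-0.60 to 0.02), -0.06 for DLL1 (-0.40 to 0.28), -0.12 for HES2 (-0.34 to 0.10) and 0.39 for HES4 (-0.19 to 0.98). Without replicate 6 of Ag2S NPs, NOTCH1 (-0.33, adjusted p = 0.0293) and JAG1 (-0.49, adjusted p = 0.000491) were also lower with Li-doped Ag2S NPs, and NOTCH2 was higher after scaling (0.40, adjusted p = 0.027) and without replicate 4 (0.46, adjusted p = 0.0211).

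At 320 μg/mL, where 26.2% of all genes were called (10.1% higher and 16.1% lower), NOTCH3 was higher with Li-doped Ag2S NPs (0.45 ± 0.11, limma adjusted p = 0.0131) and JAG1 (-0.71 ± 0.10, adjusted p = 0.000623), JAG2 (-0.31 ± 0.06, adjusted p = 0.00463) and HES2 (-0.50 ± 0.09, adjusted p = 0.00254) were lower. The libraries of the particles did not overlap in these 4 members, where 41.3% of all genes did not overlap. The intervals of the others were -0.27 to 0.23 for NOTCH1, -0.55 to 0.12 for NOTCH2, -0.51 to 0.05 for DLL1, -0.38 to 0.04 for HES1, -0.29 to 0.40 for HES4 and -0.81 to 0.12 for HEY1. JAG2 is thus the member that was lower with the Li-doped particle at both doses. For NOTCH1 a difference beyond 0.27 on the log2 scale at 320 μg/mL lies outside the interval, whereas both particles had lowered it by about 1 against untreated cells.

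The doses of each particle were compared in 1 fit over 15 libraries. Between 320 and 160 μg/mL of Ag2S NPs, where 12.5% of 11952 genes were called (4.84% higher and 7.68% lower), JAG1 (0.59 ± 0.14, limma adjusted p = 0.0116) and HES2 (0.58 ± 0.10, adjusted p = 0.0016) were higher at 320 μg/mL and the other 8 members were not called, of which HES4 (0.49, adjusted p = 0.202) passed without replicate 5 (0.75, adjusted p = 0.0478). The value for JAG1 was 0.39 (adjusted p = 0.0361) without replicate 6 and 0.52 (adjusted p = 0.0558) without replicate 7. Between 320 and 160 μg/mL of Li-doped Ag2S NPs, where 42.8% of genes were called (19.6% higher and 23.3% lower), JAG2 (0.64 ± 0.11, adjusted p = 0.000177), NOTCH3 (0.56 ± 0.15, adjusted p = 0.00756) and HES1 (0.28 ± 0.10, adjusted p = 0.0402) were higher at 320 μg/mL, and HEY1 (-1.52 ± 0.18, adjusted p = 8.14e-06) and NOTCH2 (-0.53 ± 0.16, adjusted p = 0.0143) were lower. The call of HES1 was lost without any 1 of 6 libraries (replicates 3, 8, 11, 12, 13 and 14, adjusted p from 0.0506 to 0.158), and that of NOTCH2 without replicate 15 (-0.39, adjusted p = 0.0724). At the lower dose of the Li-doped particle, therefore, HEY1 and NOTCH2 had their highest and JAG2 and HES1 their lowest group means. NOTCH1, NOTCH3 and JAG1 also had their lowest group means there, at 14.5, 6.33 and 93.5 FPKM. Of these lowest groups, only that of JAG2 did not overlap the group next above it.

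The effect of Li doping at 320 μg/mL minus that at 160 μg/mL was tested as an interaction, past the threshold in 39.7% of all genes (20.2% positive and 19.5% negative) and in 3 members. It was -1.68 ± 0.25 for HEY1 (limma adjusted p = 0.000101), 0.41 ± 0.15 for JAG2 (adjusted p = 0.0416) and -0.38 ± 0.14 for HES2 (adjusted p = 0.0412). The first held in every alternative that could be fitted. The call of JAG2 was lost when any 1 of 11 of the 15 libraries was left out (adjusted p from 0.0512 to 0.11) and that of HES2 with any 1 of 9 (adjusted p from 0.0518 to 0.112). Without the filter on low values both were lost (adjusted p = 0.0584 for JAG2 and 0.0528 for HES2), as was that of HES2 after scaling (-0.37, adjusted p = 0.061). The interaction missed the threshold for NOTCH2 (-0.56, adjusted p = 0.0632), NOTCH3 (0.50, adjusted p = 0.0775), JAG1 (-0.42, adjusted p = 0.1) and HES1 (0.36, adjusted p = 0.0629), and each passed when 1 library was left out, among them replicate 14 for NOTCH2 (-0.68, adjusted p = 0.0273), replicate 6 for NOTCH3 (0.68, adjusted p = 0.00711), replicate 4 for JAG1 (-0.55, adjusted p = 0.0339) and replicate 10 for HES1 (0.47, adjusted p = 0.0183). That of HES1 also passed without replicate 15 (0.41, limma adjusted p = 0.0493).

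The other genes of the pathway were taken from a list of 74 gene symbols, of which 69 are in the data and 60 or 61 passed the filter. AES is listed a further time under its newer symbol TLE5. Against untreated cells, 8 rose and 14 fell with Ag2S NPs at 160 μg/mL, and 11 rose and 26 fell at 320 μg/mL. With Li-doped Ag2S NPs 12 rose and 29 fell at 160 μg/mL, and 10 rose and 32 fell at 320 μg/mL. Over all genes 11.5% rose and 23.8% fell, 16.2% and 36.2%, 22.6% and 40.6%, and 17% and 44.6% in the same order, so the counts of the list were not far from the whole. After scaling they were 11 and 7, 16 and 16, 17 and 21, and 19 and 21. In the roles described next, pairs of counts are genes higher and genes lower in that order of groups, to be read beside these shares. The median log2 change of the list was -0.15, -0.19, -0.27 and -0.35, beside the medians over all genes given above.

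The nuclear complex that the cut receptor joins had no member that rose in any of these comparisons. Of 8 tested members, 3 fell with Ag2S NPs at 160 μg/mL and 6 at 320 μg/mL, and 7 and 8 fell with Li-doped Ag2S NPs, where 23.8%, 36.2%, 40.6% and 44.6% of all genes fell, with medians of -0.43, -0.57, -0.94 and -0.92. After scaling 0, 5, 5 and 5 fell, where 14.1%, 22%, 30.1% and 26.4% of all genes did. MAML1, a Mastermind coactivator, fell in all 4 groups, to 14.8 ± 0.0666 FPKM with Li-doped Ag2S NPs at 160 μg/mL, against 27.1 ± 2.02 FPKM in untreated cells (SD, log2 change -0.86, limma adjusted p = 6.23e-06). MAML2, a relative, fell to 1.37 ± 0.0651 FPKM with Li-doped Ag2S NPs at 160 μg/mL, against 5.09 ± 0.313 FPKM (log2 change -1.82, limma adjusted p = 2.98e-06). CREBBP, a histone acetyltransferase, fell to 9.23 ± 1.82 FPKM with Li-doped Ag2S NPs at 320 μg/mL, against 18.6 ± 0.966 FPKM (-1.02, adjusted p = 0.000168). RBPJ itself, named here after its values were seen, was at 5.31 ± 1.23 FPKM in that group, against 10.4 ± 0.57 FPKM (-0.98, adjusted p = 0.000532).

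Receptor glycosylation, in which Fringe enzymes add sugars that change which ligand a receptor answers to, was led by LFNG. It had 42.4, 52.62 and 38.26 FPKM with Ag2S NPs at 160 μg/mL and 61.2, 59.79 and 68.82 FPKM at 320 μg/mL. It had 30.48, 35.97 and 30.85 FPKM with Li-doped Ag2S NPs at 160 μg/mL and 53.68, 54.17 and 56.23 FPKM at 320 μg/mL, against 26.13, 27.45 and 26.95 FPKM in untreated cells. All 12 treated libraries were above the untreated ones, with a log2 change of 1.23 ± 0.07 (SE) for Ag2S NPs at 320 μg/mL (limma adjusted p = 1.16e-07) and of 0.27 (adjusted p = 0.0591) for Li-doped Ag2S NPs at 160 μg/mL. Its relative MFNG averaged 8.57 ± 3.18 FPKM with Li-doped Ag2S NPs at 160 μg/mL, against 2.22 ± 0.371 FPKM (1.84, adjusted p = 0.000222). FURIN, the protease that cleaves Notch receptors on their way to the surface, averaged 94.7 ± 4.75 FPKM with Li-doped Ag2S NPs at 320 μg/mL, against 73.3 ± 0.637 FPKM (0.37, adjusted p = 0.000545). Of the 8 genes counted under this role, which include the protease FURIN, 3 rose and 1 fell, 3 and 2, 2 and 1, and 3 and 1. After scaling the counts were 3 and 0, 4 and 0, 4 and 0, and 5 and 0, so the lower calls were lost.

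Among the enzymes that ubiquitinate ligands, NEURL3 fell to 0.69, 0.81 and 0.76 FPKM with Li-doped Ag2S NPs at 160 μg/mL, against 5.71, 5.62 and 6.46 FPKM in untreated cells (log2 change -2.82, limma adjusted p = 3.51e-07). Its relatives NEURL1 and NEURL1B rose in that group. NEURL1 had 4.94, 3.6 and 7.02 FPKM, against 0.02, 0.03 and 0.11 FPKM in untreated cells, with a fold that depends on the added 0.1. It passed the filter of a mean of 1 FPKM only through that group, so its tests are not given and its values are a description. NEURL1B averaged 4.58 ± 0.516 FPKM, against 1.35 ± 0.125 FPKM (1.69, adjusted p = 1.24e-05). At 320 μg/mL of the same particle NEURL1 had 0.39, 0.41 and 0.21 FPKM. NEURL1B was lower there than at 160 μg/mL, by -1.41 (adjusted p = 1.51e-05). Of the 4 or 5 tested genes of this role, 1 rose and 1 fell, 1 and 2, 2 and 2, and 1 and 2, and after scaling 1 and 0, 2 and 2, 2 and 1, and 2 and 2. NEURL1 is counted there as higher with Li-doped Ag2S NPs at 160 μg/mL.

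The receptor cleavage genes code for ADAM proteases and the subunits of γ-secretase. Of 8, 0 rose and 2 fell, 1 and 2, 1 and 3, and 1 and 4, and after scaling 1 and 1, 1 and 1, 2 and 2, and 2 and 3. NCSTN, the subunit that takes up the substrate, fell to 34.3 ± 1.28 FPKM with Li-doped Ag2S NPs at 160 μg/mL, against 70.4 ± 4.96 FPKM (log2 change -1.03, limma adjusted p = 5.02e-07), and APH1A, another subunit, to 123.3 ± 8.14 FPKM against 194.2 ± 4.38 FPKM (-0.66, adjusted p = 1.05e-05). PSEN2, a catalytic subunit, rose to 13.5 ± 1.34 FPKM in that group, against 7.7 ± 0.53 FPKM (0.80, adjusted p = 0.000263).

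Of 10 tested genes of receptor turnover, 0 rose and 5 fell, 1 and 5, 1 and 5, and 1 and 8, and after scaling 0 and 4, 1 and 3, 1 and 5, and 2 and 5. DTX3L, a Deltex-type ubiquitin ligase, averaged 25.6 ± 3.79 and 20.5 ± 2.09 FPKM with Ag2S NPs and 9.38 ± 0.43 and 13.3 ± 1.98 FPKM with Li-doped Ag2S NPs, against 42.5 ± 0.513 FPKM in untreated cells. DTX4, a relative, fell to 15.6 ± 1.42 FPKM with Li-doped Ag2S NPs at 160 μg/mL, against 34.5 ± 0.698 FPKM (log2 change -1.14, limma adjusted p = 1.35e-06). NUMBL, related to the Notch inhibitor NUMB, rose to 14.2 ± 1.41 FPKM in that group, against 4.96 ± 0.927 FPKM (1.51, adjusted p = 5.28e-06). The 1 tested gene among the further receptor and ligands, the non-canonical ligand DLK2, fell in all 4 groups, to 6.03 ± 1.08 FPKM with Li-doped Ag2S NPs at 160 μg/mL against 23.7 ± 0.683 FPKM (-1.97, adjusted p = 2.51e-07).

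Of 18 corepressors and brakes, 2 rose and 0 fell, 3 and 7, 4 and 9, and 3 and 7. After scaling the counts were 4 and 0, 6 and 3, 6 and 6, and 6 and 4, which turned the balance at 320 μg/mL of both particles. TLE4, a Groucho-type corepressor that HES proteins recruit, fell to 10.4 ± 0.726 FPKM with Li-doped Ag2S NPs at 160 μg/mL, against 34.2 ± 2.22 FPKM (log2 change -1.72, limma adjusted p = 1.1e-07), and AES, a short relative, to 99.1 ± 1.89 FPKM against 208.8 ± 15.4 FPKM (-1.07, adjusted p = 2.67e-06). CIR1, a corepressor bound by RBPJ, fell to 14.1 ± 0.363 FPKM with Li-doped Ag2S NPs at 320 μg/mL, against 29 ± 1.42 FPKM (-1.04, adjusted p = 6.99e-07).

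Of the further HES and HEY family, 3 genes passed the filter, of which 2 rose and 1 fell, 2 and 1, 2 and 1, and 1 and 1 (2 and 1 after scaling in the last group). BHLHE41, a repressor best known from the circadian clock, fell in all 4 groups, with 31.38, 29.22 and 27.26 FPKM and 18.32, 14.73 and 11.84 FPKM with Ag2S NPs and 13.37, 15.56 and 8.77 FPKM and 7.62, 11.36 and 6.86 FPKM with Li-doped Ag2S NPs, at 160 and 320 μg/mL, against 65.8, 52.28 and 56.76 FPKM in untreated cells. Its log2 change with Li-doped Ag2S NPs at 320 μg/mL was -2.77 (limma adjusted p = 5.36e-07). BHLHE40, its close relative, rose to 53.9 ± 1.54 FPKM with Ag2S NPs at 320 μg/mL, against 37.1 ± 1.66 FPKM (0.54, adjusted p = 6.78e-05). HES7, an oscillating repressor of the embryonic segmentation clock, had 7.51, 3.97 and 5.57 FPKM with Li-doped Ag2S NPs at 160 μg/mL, against 0.21, 0 and 0.26 FPKM in untreated cells, so its fold depends on the added 0.1. Its untreated values lay under the filter of a mean of 1 FPKM, which it passed only through treated libraries. Its test is therefore not given, though it is counted above, and in the counts of the whole list, as higher with both particles at 160 μg/mL.

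**Figure D5:**
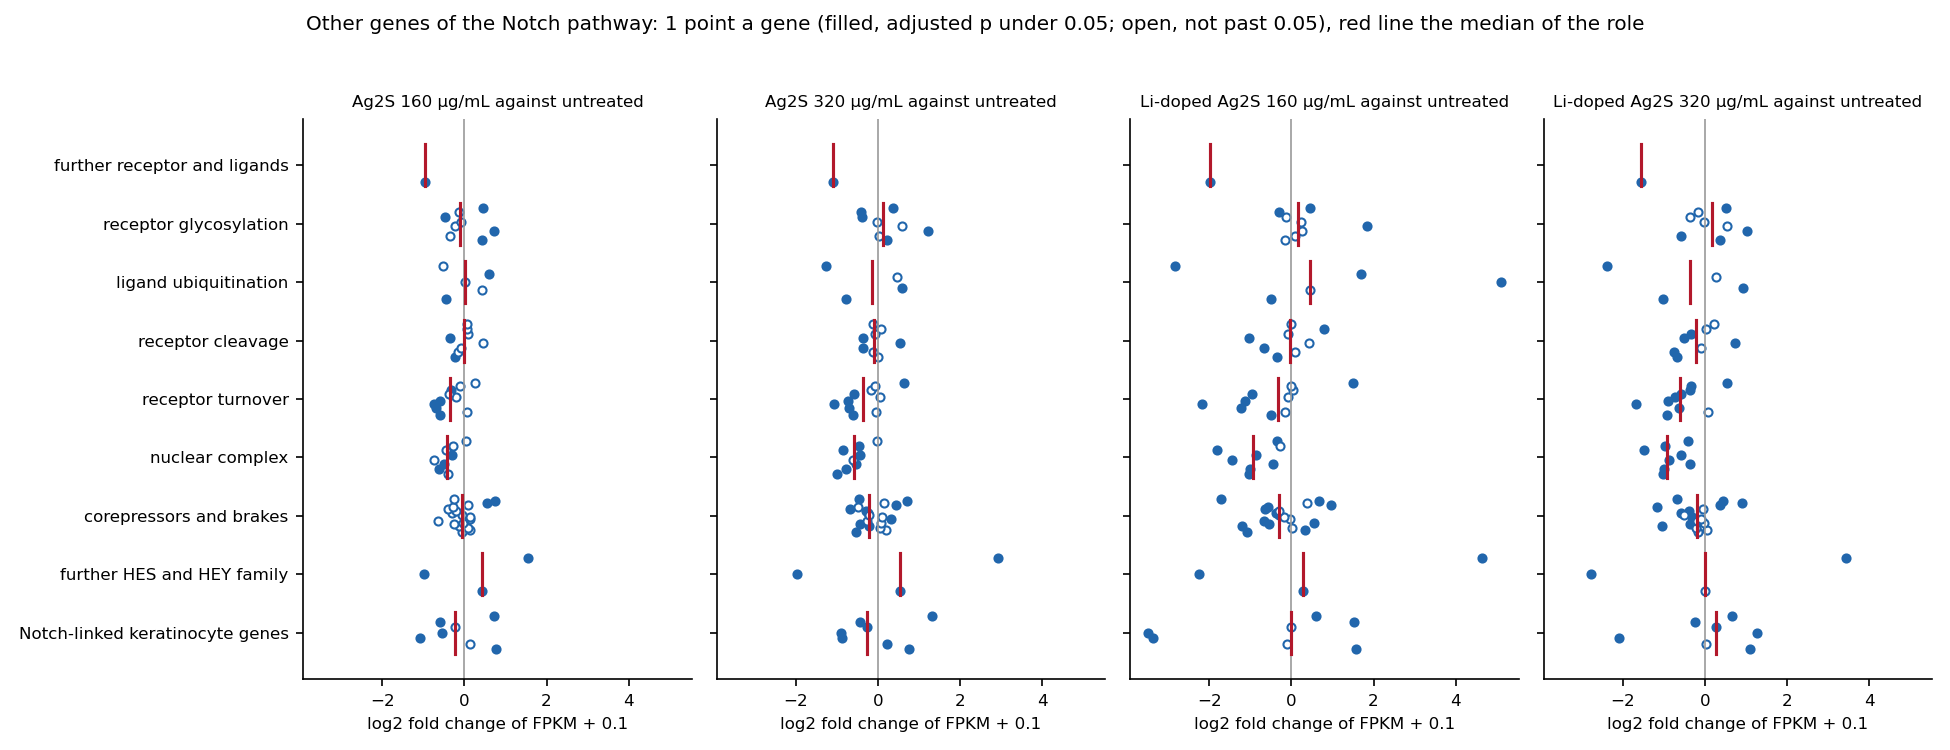
Log2 fold change of FPKM + 0.1 against untreated cells (horizontal axes) of the tested genes of the Notch pathway other than the 10 members, by role (rows), in the 4 treated groups (panels). Each point is a gene, filled where its adjusted p is under 0.05, and the red line is the median of the role, which for the nuclear complex lies between -0.94 and -0.43.

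The keratinocyte genes tied to Notch, listed apart, did not move as 1 group. Of 7, 2 rose and 3 fell, 3 and 4, 3 and 2, and 4 and 2, and after scaling 3 and 2, 3 and 3, 3 and 2, and 5 and 1. Over all genes 11.5% rose and 23.8% fell, 16.2% and 36.2%, 22.6% and 40.6%, and 17% and 44.6% as deposited, in the same order. CDKN1A, the cell cycle inhibitor p21, rose in all 4 groups, to 357.2 ± 16.9 FPKM with Li-doped Ag2S NPs at 160 μg/mL against 119.1 ± 3.99 FPKM in untreated cells (log2 change 1.58, limma adjusted p = 5.87e-09). IVL, which codes for the cornified envelope protein involucrin, fell in all 4, to 0.79 ± 0.125 FPKM in that group against 9.0 ± 0.682 FPKM (-3.36, adjusted p = 3.19e-08). KRT1, an early keratin of differentiation, went opposite ways with the doses of the Li-doped particle. It had 6.41, 6.92 and 9.22 FPKM at 160 μg/mL (-3.49, adjusted p = 4.03e-09) and 200.66, 211.59 and 203.57 FPKM at 320 μg/mL (1.28, adjusted p = 1.22e-08), against 86.15, 84.26 and 83.22 FPKM in untreated cells.

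The genes whose 5 group means were most like those of a member were looked up among 11951 genes, by the root mean square difference of group means of log2(FPKM + 0.1), each centered on its own mean, over 5 groups of 15 libraries. For HES1 they were MAML1 (0.019), NFKBIA (0.028) and RFC1 (0.031), and for HES2 they were WDR91 (0.03), CALR (0.054) and TP63 (0.073). For JAG1 they were ZNF138 (0.017), ZNF441 (0.054) and CDADC1 (0.078), for JAG2 GALNT7 (0.043), ARHGEF17 (0.056) and ING4 (0.074), and for DLL1 IGF1R (0.024), BCL11B (0.026) and VWA1 (0.041). For NOTCH1 they were SLC12A2 (0.049), AKAP8 (0.05) and FMR1 (0.052), for NOTCH2 TBCE (0.024), ZNF468 (0.026) and NCBP1 (0.035), and for NOTCH3 RASSF7 (0.027), EMILIN2 (0.048) and ACTR1B (0.055). For HEY1 they were GNL3 (0.035), ATP2B1 (0.089) and WDR43 (0.105), and for HES4 RTL10 (0.035), TECPR1 (0.054) and DENND6B (0.055). GNL3 had the peak of HEY1, with 29.5 ± 1.06 FPKM with Li-doped Ag2S NPs at 160 μg/mL, against 15.3 ± 2.18 FPKM in untreated cells, and IGF1R had the range of DLL1, with 39.3 ± 7.22 FPKM with Ag2S NPs at 320 μg/mL, against 23.7 ± 0.511 FPKM.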

How the data were processed

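RNA of HaCaT cells was sequenced in 15 libraries with paired reads of 150 bases (TruSeq RNA Sample Prep Kit). The authors used TopHat, Cufflinks 2.1.1 and Cuffdiff, corrected for multiply mapped reads and fragment bias, and deposited FPKM per gene and per transcript, rounded to 2 decimals. Other tool versions, the genome build, the annotation release and the use of strand were not given in those sources. The deposited tables also hold the authors' group values, log2 ratios, p-values, q-values and calls, which were not used, nor were the tables of 2 groups. The 2 tables of 9 libraries share the untreated libraries, with identical values, and hold 17740 and 17653 genes, 18179 in all. All identifiers occur in GENCODE release 29. No whole reads could be recovered, since the fullest bin of 0.1 on the log2 scale held 9.43% of 785 low genes, so the depth is unknown.

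Groups were taken from the labels. In R 4.3.3, log2(FPKM + 0.1) of genes that averaged 1 FPKM or more was fitted with limma 3.58.1 (eBayes with a trend, tests with 2 sides, Benjamini-Hochberg over all genes of the fit, threshold 0.05). The 9 libraries of a dose were fitted together for comparisons with untreated cells and between particles (11987 genes at 160 μg/mL, 11903 at 320 μg/mL), and all 15 for doses and the interaction (11952). Errors are SE for log2 changes and SD for FPKM. The fits were tested on simulated data. The members, the lists of pathway genes and markers and the tests were chosen with earlier results of these data known. The text names all members, per role up to 3 pathway genes with the smallest p-values against untreated cells, and 3 genes of most similar pattern per member. The alternatives were pseudocounts of 1 and 0.01, no filter or one at an average of 5 FPKM, median ratio scaling, robust eBayes, library weights, fits of only the groups compared or of all 15 libraries, and leaving out each library. The transcript fits were added after the data were seen.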

Additional observations from a re-analysis of the deposited data

Results flagged for a closer look

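The effect of Li doping differed between the doses for 3 members, by a test of the difference itself (limma, 1 fit over 15 libraries, effect at 320 μg/mL minus that at 160 μg/mL), where 39.7% of all genes were called. For HEY1 the difference was -1.68 on the log2 scale (adjusted p = 0.000101), with Li-doped Ag2S NPs above Ag2S NPs in 3 of 3 libraries at 160 μg/mL (means of 6.65 and 2.58 FPKM) and means of 2.27 and 2.96 FPKM at 320 μg/mL. For JAG2 it was 0.41 (adjusted p = 0.0416), with means of 52.0 FPKM (Li-doped) and 86.5 FPKM (undoped) at 160 μg/mL and of 81.1 and 100.9 FPKM at 320 μg/mL. For HES2 it was -0.38 (adjusted p = 0.0412), with means of 35.2 and 38.3 FPKM at 160 μg/mL and of 40.1 and 57.2 FPKM at 320 μg/mL. The call of JAG2 was lost on leaving out any 1 of 11 of the 15 libraries (adjusted p from 0.0512 to 0.11) and without the filter on low values (adjusted p = 0.0584). That of HES2 was lost on leaving out any 1 of 9 (adjusted p from 0.0518 to 0.112), without that filter (adjusted p = 0.0528) and after scaling (adjusted p = 0.061).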

How the results depend on the processing

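The depth is unknown, and 3 libraries a group set the precision. No paired analysis was possible because the replicate numbers, 1 to 15, are all different. Over the values of the 10 members, the settings other than a left-out library left 711 values on their side of the threshold with their direction, brought 24 past it, took 13 back and turned the direction of 13. Leaving out a library gave 888, 26, 47 and 29. The HES2 transcripts are not in these counts. HEY1 had no value where an average of 5 FPKM was asked for. The causes were not tested.

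Of members changed, Ag2S NPs at 160 μg/mL against untreated cells had 3 after scaling (5 as deposited), Li-doped against undoped Ag2S NPs at 160 μg/mL had 5 with library weights (3), and the interaction had 1 without a filter and 6 with library weights (3). With a library left out these counts ranged from 3 to 6, from 3 to 5 and from 1 to 4, and that of Ag2S NPs at 320 against 160 μg/mL from 1 to 3. They were 3 without any 1 untreated replicate, 5 without replicate 6, 1 without replicate 8, 11 or 13, and 1 without replicate 7. Over all genes, Ag2S NPs at 320 against 160 μg/mL had 1497 calls, 2359 with library weights and 934, 926 and 963 without replicates 7, 8 and 9, and Li-doped against undoped Ag2S NPs at 320 μg/mL had 3124 calls, 1720 without replicate 7 and 1943 without replicate 8.

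Scaling turned the direction of log2 changes near 0. For Li-doped Ag2S NPs at 320 μg/mL against untreated cells it gave 0.06 for NOTCH2, 0.16 for NOTCH3 and 0.23 for JAG1 (adjusted p = 0.0297), and at 160 μg/mL 0.00 for JAG1. For Li-doped against undoped Ag2S NPs it gave 0.06 for NOTCH1 at 320 μg/mL, and 0.02 for NOTCH3 and 0.00 for DLL1 at 160 μg/mL. For the 3-exon HES2 transcript at 320 against 160 μg/mL of Li-doped Ag2S NPs it gave 0.00. Library weights gave 0.08 for NOTCH1 between the particles at 320 μg/mL, -0.05 for NOTCH2 and -0.11 for NOTCH3 between the doses of Ag2S NPs, 0.08 for JAG1 with Li-doped Ag2S NPs at 320 μg/mL, 0.08 for HES4 with Ag2S NPs at 160 μg/mL, and 0.07 for DLL1 in the interaction.

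With a library left out, the log2 changes that turned had all missed the threshold as deposited. Against untreated cells they ranged from -0.12 to 0.17 (NOTCH2), -0.02 to 0.30 (JAG1) and -0.43 to 0.04 (HES4) with Ag2S NPs at 160 μg/mL, and from -0.06 to 0.14 (NOTCH2) at 320 μg/mL. With Li-doped Ag2S NPs they ranged from -0.02 to 0.41 (HES4) at 160 μg/mL, and from -0.08 to 0.11 (JAG1) and -0.07 to 0.05 (4-exon HES2 transcript) at 320 μg/mL. Between Li-doped and undoped Ag2S NPs they ranged from -0.23 to 0.10 (NOTCH3) and -0.19 to 0.09 (DLL1) at 160 μg/mL, and from -0.08 to 0.09 (NOTCH1), -0.03 to 0.17 (HES4) and -0.21 to 0.02 (3-exon HES2 transcript) at 320 μg/mL. Between 320 and 160 μg/mL of Ag2S NPs they ranged from -0.14 to 0.15 (NOTCH2), -0.13 to 0.21 (NOTCH3), -0.16 to 0.01 (HES1) and -0.02 to 0.30 (HEY1). Between these doses of Li-doped Ag2S NPs they ranged from -0.01 to 0.15 (NOTCH1), -0.03 to 0.20 (DLL1), -0.04 to 0.39 (HES4) and -0.17 to 0.10 (3-exon HES2 transcript).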
